A study of Danio rerio with 27 samples.

Results

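The genes described here are 45 zebrafish liver genes whose names place them among the oxidoreductases, the enzymes that move electrons or hydrogen from one molecule to another. They were all the genes in the study's lists of 8 co-expression clusters (A to H) whose description held the word dehydrogenase (28 genes), reductase (10), oxidase (9, peroxidase included) or hydroxylase (2), with cytochromes P450, hmgcra and aoc2 left out. A description could hold more than 1 of these words. The 45 genes stand among 18336 genes in the deposited table, of which 1408 were in a cluster. By their names 42 encode enzymes of oxidation and reduction. The other 3 matched by a word only, pdk2a being a kinase that switches off pyruvate dehydrogenase and uqcc3 and sdhaf4 being assembly factors of respiratory complexes. Cluster B held 35 of the 45, E and F held 3 each, C held 2, and G and H held 1 each.

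Oxidoreductases pass electrons through carriers such as NAD, NADP, FAD and haem, and hepatocytes hold many of them. Peroxisomes and mitochondria of the hepatocyte use them to burn fatty acids and amino acids, the cytosol to convert sugars and lactate, and the endoplasmic reticulum to reduce steroids and retinoids and to form disulfide bonds. A few act outside the cell, such as the lysyl oxidases, which crosslink collagen and elastin and are studied in liver fibrosis. Thioacetamide (TAA) is a liver toxicant that becomes harmful once the liver has oxidised it.

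RNA was sequenced from sorted liver cells of adult female zebrafish on the AB background, which had received 6 intraperitoneal injections over 2 weeks of either TAA at 500 mg/kg or sterile water (the methods also mention saline). Fish of 3 reporter lines were used, in which the kdrl promoter drives ras-mCherry to mark endothelial cells (ECs), the fabp10a promoter drives dsRed to mark hepatocytes (HEPs), and hand2:EGFP marks hepatic stellate cells (HSCs). Each line gave TAA reporter-positive, control reporter-positive and control reporter-negative libraries, 3 of each, so that 27 libraries made 9 groups. Each library came from 100000 cells. Nothing in the labels says that each library came from a separate fish, and the methods list fewer control fish than control libraries. Libraries may therefore share fish, and the p-values measure the spread between these libraries. Values are rlog values, log2 levels per gene that are not divided by gene length, so levels were compared between libraries and not between genes. A gene is called changed where its adjusted p in limma was under 0.05 over all 18336 genes.

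The labels were set against marker genes first, and several did not match. In the libraries labelled TAA EC, all 21 endothelial markers were lower than in control ECs, with a mean of 0.79 against 7.80, and 14 of the 21 had a mean under 1. The driver gene kdrl stood at 2.05, 2.64 and 2.07 in the libraries labelled TAA EC, against 12.74, 12.78 and 12.51 in control ECs. All 24 hepatocyte markers were higher there, with a mean of 12.80 against 8.43 in control ECs and 12.05 in control HEPs, and 13 of 15 leukocyte markers were lower, with a mean of 1.27 against 6.78. The control libraries labelled HSC had a hepatocyte marker mean of 11.98 and a stellate marker mean of 2.21, close to the 1.99 of control HEPs, and hand2 stood at -0.13, 1.39 and 0.77. In TAA libraries labelled HSC the hepatocyte marker mean was 12.10, the stellate mean was 4.84 and hand2 stood at 2.80, 2.70 and 1.78. The dsRed-positive and dsRed-negative control cells both carried hepatocyte markers, with means of 12.05 in the positive and 11.93 in the negative cells, and the driver gene fabp10a averaged 13.83 in the positive and 13.74 in the negative cells. The EGFP-negative library of replicate 3 stood apart, with a hepatocyte marker mean of 6.36 against 12.21 and 12.12 in the other EGFP-negative libraries. In sorted bulk samples, fewer cells of a type and less RNA per cell cannot be told apart.

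**Figure D1:**
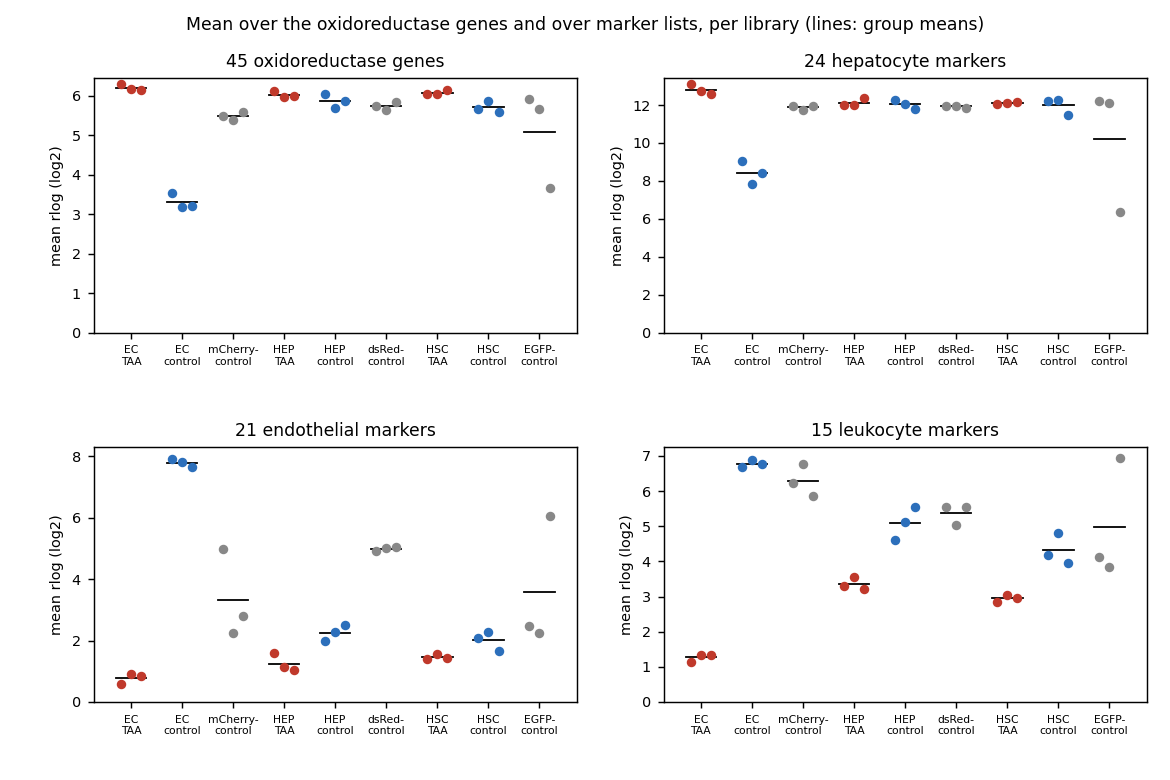
Mean rlog value (log2 scale, y axis) per library of the 45 oxidoreductase genes and of 24 hepatocyte, 21 endothelial and 15 leukocyte markers, with the 9 groups along the x axis, points for libraries and lines for group means. The 45 genes averaged 6.15 to 6.29 in the libraries labelled TAA EC and 3.19 to 3.53 in control ECs, and the hepatocyte markers were high and low in the same libraries.

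Averaged over all 45 genes, the libraries labelled TAA EC stood at 6.29, 6.18 and 6.15, against 3.53, 3.19 and 3.21 in control ECs. TAA HEPs stood at 6.12, 5.96 and 5.99, against 6.05, 5.68 and 5.86 in control HEPs. The TAA libraries labelled HSC stood at 6.05, 6.04 and 6.14, against 5.68, 5.86 and 5.59 in the controls. The lowest reporter-negative library was EGFP-negative replicate 3, at 3.66, the library that was also lowest in hepatocyte markers. Control ECs and that library were thus the 4 libraries with low levels of these genes, and each of the other 23 averaged at least 5.39.

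**Figure D2:**
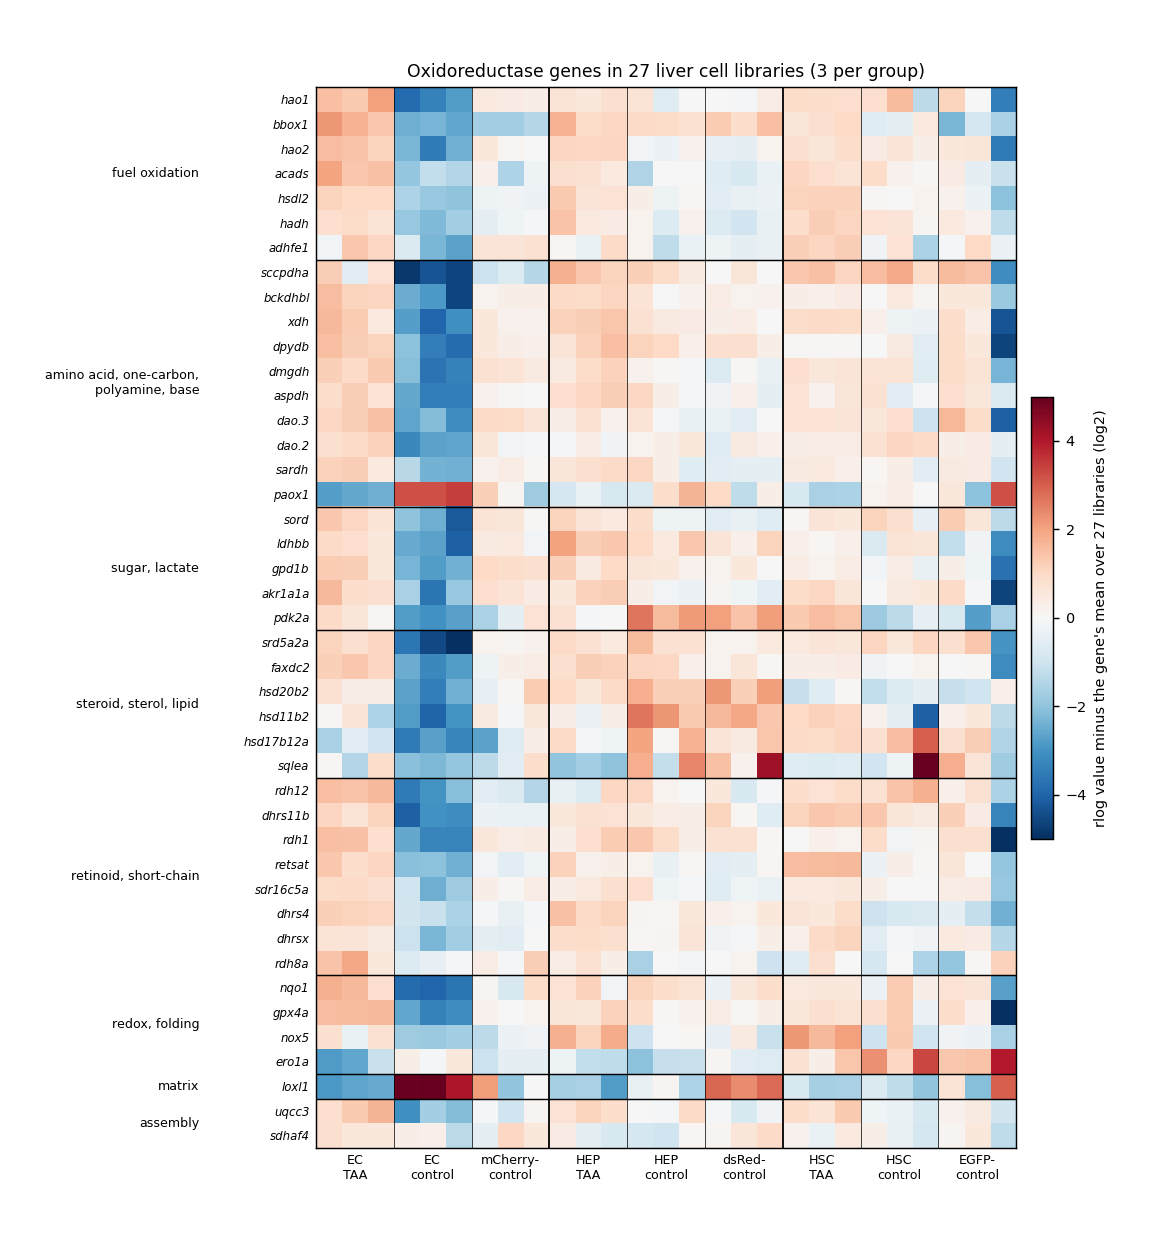
Of the 45 genes, 43 (rows, grouped by role) in the 27 libraries (columns, 3 per group), as the rlog value minus the mean of that gene over all libraries, in log2 units, red for above and blue for below the mean, with colours saturated beyond 5 units. Most rows are blue in the 3 control EC libraries and in EGFP-negative replicate 3, while loxl1 and paox1 are red in the control EC libraries.

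The first comparison asked how TAA changed these genes in the cells sorted by kdrl:ras-mCherry. In the libraries labelled TAA EC, 40 of the 45 genes were called higher and 3 lower than in control ECs, where 19.7% of all genes were called higher and 31.5% lower. The median difference was 3.49 on the log2 scale, against -0.25 over all genes. Those called lower were loxl1, paox1 and ero1a, and sdhaf4 and sqlea were not called. These counts are not independent of how the genes were chosen, since the clusters were drawn from data that include these libraries. The paper does not say whether reporter-negative libraries were used for the clusters as well. All 519 other genes of cluster B and all 92 of cluster F were also called higher, and all 144 of cluster G and 154 of cluster H lower. The 24 hepatocyte markers differed by 2.95 to 5.17 in the same comparison. With every library centred on the mean of those 24 markers, a setting chosen after seeing the data that moved the median of all genes by -4.36, 1 of the 45 genes was called higher (srd5a2a, 1.04) and 23 lower. That centring shifts all genes alike, so a rise smaller than the shift turns negative by construction. The share of all genes called under it is not given here. How much of the difference comes from the make-up of the sorted cells was not tested. Centring on the library median and quantile normalization moved the median of all genes by 0.58 and 0.41, and the count of called genes stayed at 42 or 43 when any 1 library was left out.

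**Figure D3:**
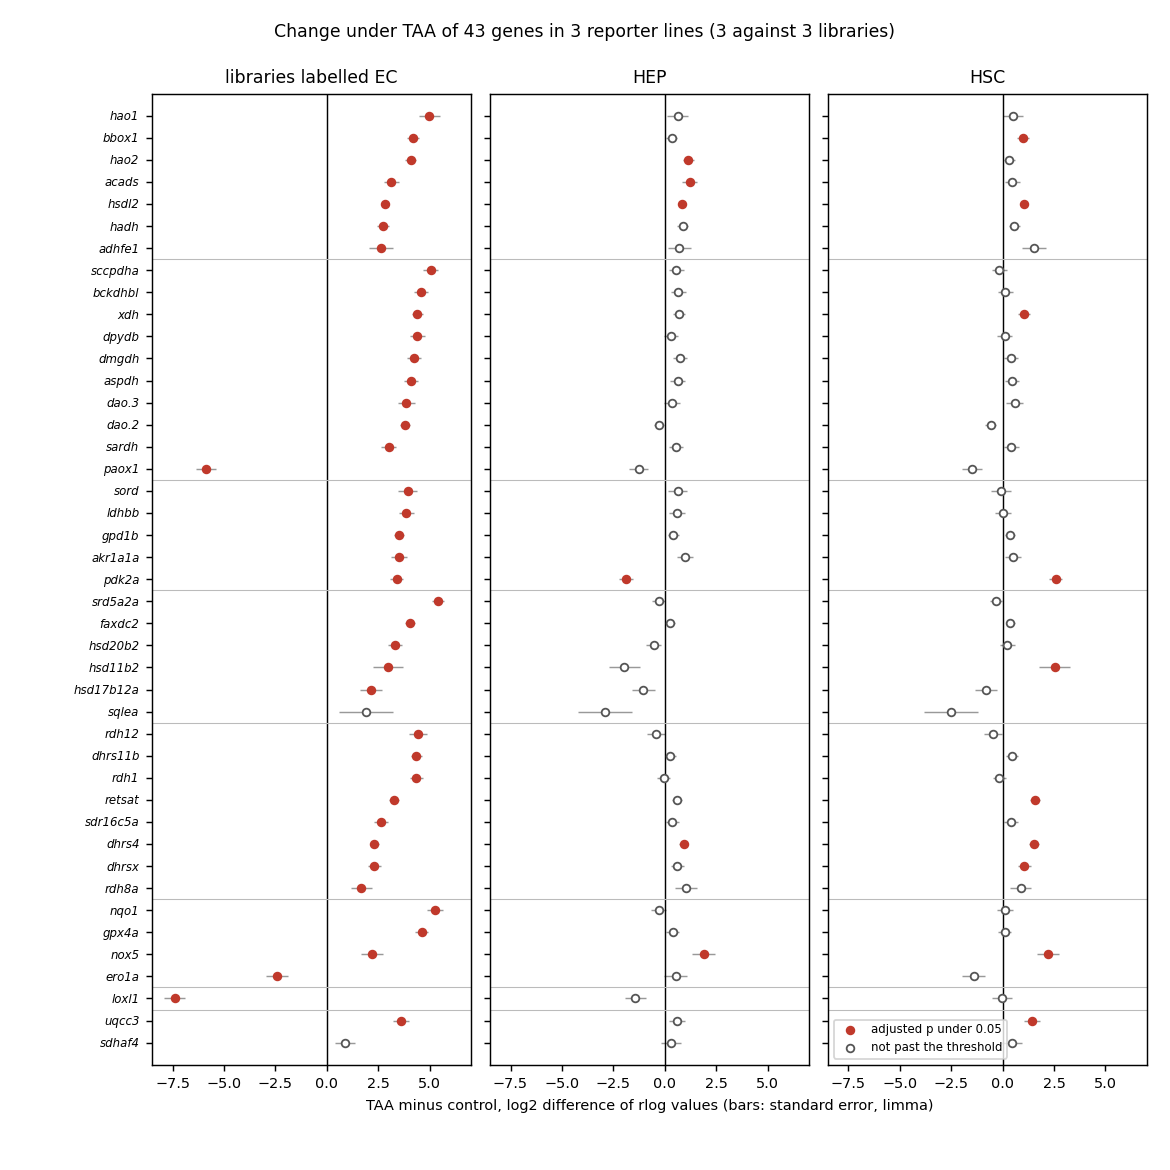
TAA minus control difference of 43 of the 45 genes (log2 of rlog values, x axis, with the standard error from limma) in libraries labelled EC, in HEPs and in libraries labelled HSC, with genes grouped by role down the page and filled points for adjusted p under 0.05. The changes in EC-labelled libraries run between -7.40 and 5.40 and centring on hepatocyte markers, which lowers every gene alike, turns the smaller rises there negative by construction, while those in HEPs and HSC-labelled libraries lie between -2.91 and 2.58.

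Among the 8 genes of peroxisomal and mitochondrial fuel oxidation, all 8 were called higher in the libraries labelled TAA EC, with hao1 and bbox1 changing most. The peroxisomal glycolate oxidase gene hao1 stood at 6.80, 6.61 and 7.34 in these libraries, against 1.39, 1.92 and 2.51 in control ECs, a difference of 4.98 (SE 0.51, adjusted p = 6e-08). The bbox1 gene, which makes carnitine for the entry of fatty acids into mitochondria, stood at 9.08, 8.66 and 8.26 against 4.50, 4.61 and 4.34, a difference of 4.19 (SE 0.28). The groups did not overlap for either gene. The others included hao2 (4.07), acads and hadh, dehydrogenases of fatty acid oxidation (3.14 and 2.73), hsdl2 (2.84) and adhfe1 (2.63). Of the rest of the pathway, all 15 other peroxisomal genes and all 14 other genes of mitochondrial fatty acid oxidation on the lists used here were called higher too. They included pipox (4.72), agxtb (4.22), catalase (cat, 4.17) and the carnitine palmitoyltransferase gene cpt1ab (3.85). The lists used here overlap, with agxtb also among the hepatocyte markers and pipox also among the one-carbon genes.

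Of the 10 genes that act on amino acids, one-carbon donors, polyamines or bases, 9 were called higher and paox1 lower. The saccharopine dehydrogenase-like gene sccpdha stood at 6.84, 5.06 and 6.33 in the libraries labelled TAA EC, against 0.80, 1.28 and 1.01 in control ECs, a difference of 5.05 (SE 0.36). Xanthine dehydrogenase (xdh), which makes urate, and dpydb, which starts the breakdown of pyrimidines, were both 4.40 higher. The one-carbon enzyme genes dmgdh and sardh, which act on the way to glycine, differed by 4.23 and 3.0, the branched-chain keto acid dehydrogenase gene bckdhbl by 4.57 and aspdh by 4.10. The D-amino acid oxidase copies dao.2 and dao.3 differed by 3.80 and 3.87. How alike these 2 genes are in sequence was not checked. If they are close copies, reads may have been split between them, and their values would then be uncertain.

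The polyamine oxidase gene paox1 went the other way. Its values were 0.42, 0.63 and 0.76 in the libraries labelled TAA EC, against 6.39, 6.41 and 6.66 in control ECs, a difference of -5.88 (SE 0.47, adjusted p = 2.2e-09). In the remaining libraries it lay between 1.12 and 6.42. The highest of these, 6.42, was EGFP-negative replicate 3, which also had the highest leukocyte and endothelial marker means among the negative libraries, 6.95 and 6.05. Other negative libraries went the other way. In dsRed-negative replicate 2 the endothelial mean was 5.00 and paox1 stood at 1.92. In mCherry-negative replicate 2 the leukocyte mean was 6.76 and paox1 stood at 3.32. Whether paox1 follows these markers was not tested. Of the lists of surrounding pathways, 15 of 15 other one-carbon genes, 17 of 20 amino acid genes and 6 of 8 purine and pyrimidine genes were called higher, and 2 of those 8 lower.

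All 5 genes around sugars, lactate and glycerol phosphate were called higher, by 3.40 to 3.92. Sorbitol dehydrogenase (sord) stood at 7.06, 6.74 and 6.40 in the libraries labelled TAA EC, against 3.68, 3.27 and 1.49 in control ECs, a difference of 3.92 (SE 0.47). The lactate dehydrogenase gene ldhbb stood at 9.14, 9.05 and 8.74 against 5.69, 5.53 and 4.11, a difference of 3.86 (SE 0.38). Its paralogue ldha, which is no member and was picked after its values were seen, differed by -3.07 (SE 0.37), so the lactate dehydrogenase genes were called in opposite directions. The kinase gene pdk2a was 3.40 higher (SE 0.32). In the rest of the sugar and pyruvate list, 9 of 13 genes were called higher and ldha alone lower.

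In steroid, sterol and lipid synthesis, 6 of 7 genes were called higher. Steroid reductase srd5a2a had the largest difference of all 45 genes in the positive direction. It stood at 7.57, 7.24 and 7.52 in the libraries labelled TAA EC, against 2.82, 1.94 and 1.36 in control ECs, a difference of 5.40 (SE 0.30, adjusted p = 1.8e-11). The hydroxylase-family gene faxdc2 stood at 9.33, 9.47 and 9.19 in the libraries labelled TAA EC, against 5.63, 4.91 and 5.33 in control ECs, a difference of 4.04 (SE 0.22). The groups overlapped for neither gene. The steroid enzyme gene hsd20b2 was 3.30 higher and hsd11b2, which turns cortisol into cortisone, 2.98 higher (SE 0.74). The elongation enzyme gene hsd17b12a stood at 2.12, 3.21 and 2.82 against 0.22, 1.04 and 0.40, a difference of 2.16 (SE 0.54). Squalene epoxidase (sqlea), an enzyme of cholesterol synthesis, gave 0.95, -0.56 and 1.76 against -1.21, -1.34 and -1.04, and its difference of 1.91 (SE 1.31) was not called. That standard error is shared with all reporter-positive libraries, and control replicate 3 labelled HSC stood at 7.72. In a fit of only the EC-labelled libraries compared, sqlea was called higher. Of 20 other cholesterol genes, 9 were called higher and 0 lower.

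All 8 retinoid and short-chain dehydrogenases were called higher, by 1.67 to 4.41. Retinol dehydrogenase rdh12 stood at 5.41, 5.32 and 5.52 in the libraries labelled TAA EC, against 0.35, 0.91 and 1.75 in control ECs, a difference of 4.41 (SE 0.44). The short-chain dehydrogenase gene dhrs11b stood at 6.23, 5.85 and 6.26 against 1.09, 2.14 and 2.04, a difference of 4.35 (SE 0.29). The groups overlapped for neither gene. The difference of rdh1 was 4.34 and that of retinol saturase, retsat, 3.28. Smaller differences were found for sdr16c5a (2.63), dhrs4 (2.31), dhrsx (2.30) and rdh8a (1.67). The smallest of these, rdh8a, lost its call without TAA replicate 2, with an adjusted p of 0.064. Of 9 other retinoid genes 3 were called higher, among them the plasma carrier rbp4 (5.17), which is also one of the hepatocyte markers, and 1 lower, the retinal dehydrogenase aldh1a2 (-4.70).

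The 4 genes of redox defence, oxidant production and disulfide formation were split. The quinone reductase gene nqo1 stood at 6.06, 5.93 and 5.12 in the libraries labelled TAA EC, against 0.45, 0.32 and 0.63 in control ECs, a difference of 5.24 (SE 0.39). The lipid peroxidase gene gpx4a stood at 11.90, 11.94 and 11.99 against 7.78, 6.96 and 7.24, a difference of 4.61 (SE 0.31). The NADPH oxidase gene nox5, which makes superoxide, was 2.19 higher (SE 0.55). By contrast ero1a, which oxidises protein disulfide isomerase in the endoplasmic reticulum, stood at 0.48, 0.70 and 2.22 against 3.60, 3.23 and 3.86, a difference of -2.43 (SE 0.56, adjusted p = 0.0011). In the same folding pathway 8 of 12 other genes were called higher and 0 lower, including p4hb (2.35), pdia3 (2.20) and the paralogue ero1b (1.87). In the antioxidant list 4 of 14 other genes were called higher, among them cat and gpx1a (2.65), and 2 lower, me1 (-3.78) and gsr (-1.18, named after its value was seen).

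The matrix enzyme loxl1 had the largest difference of the 45 genes. It stood at 0.27, 0.51 and 0.65 in the libraries labelled TAA EC, against 8.12, 8.31 and 7.20 in control ECs, a difference of -7.40 (SE 0.50, adjusted p = 2.4e-10). None of the 18 libraries of the other reporter lines exceeded 6.16, the value of EGFP-negative replicate 3, and the dsRed-negative libraries stood at 6.02, 5.53 and 5.99. Of the 6 other collagen-modifying genes 2 were called lower, p4ha1a (-3.57) and loxl2a (-3.02), and 0 higher. With libraries centred on hepatocyte markers, loxl1, paox1 and ero1a stood lower by -11.76, -10.25 and -6.79. That centring lowers every gene alike in this comparison, so these larger decreases follow by construction and are no check of the calls. Of the assembly factors, uqcc3 of respiratory complex III stood at 4.25, 4.72 and 5.11 against 0.33, 1.70 and 1.23, a difference of 3.61 (SE 0.40), and sdhaf4 of complex II at 2.24, 1.98 and 1.98 against 1.75, 1.71 and 0.11, a difference of 0.88 (SE 0.49, adjusted p = 0.15).

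Because the libraries labelled TAA EC carried hepatocyte markers, they were also set against control HEPs and against the mCherry-negative control cells. Both comparisons differ in treatment and in sort at once, and that with control HEPs also in reporter line. These parts cannot be told apart. Against control HEPs, 11 of the 45 genes were called higher and 5 lower, where 3.67% of all genes were called higher and 8.48% lower. Of the 24 hepatocyte markers, 12 were called higher in the same comparison. The genes called higher were acads (2.11), rdh8a (1.86), hao1 (1.59), hao2 (1.42), gpx4a (1.20), retsat (1.13), dmgdh (1.09), hsdl2 (0.99), hadh (0.91), bbox1 (0.86) and dhrs4 (0.85), so 6 of the 11 belong to fuel oxidation. Those called lower were paox1 (-3.20), hsd11b2 (-2.35), hsd17b12a (-2.30), loxl1 (-2.09) and pdk2a (-1.57). Of the other genes of cluster B, 23.5% were called higher, a share close to that of the members. When any 1 library was left out the count ranged between 8 and 14, and it was 9 without EC TAA replicate 1, 10 without EC TAA replicate 2 and 8 without HEP control replicate 2. The calls of acads, hao2, hsdl2, retsat, paox1, hsd17b12a and pdk2a held without each library in turn. With libraries centred on hepatocyte markers 1 gene was called higher and 7 lower. That centring moved the median of all genes by -0.75, and the share of all genes called under it is not given here.

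Whether the mCherry-negative control cells were used to draw the clusters is not stated in the paper. The libraries labelled TAA EC were used, so the comparison with these cells is not independent of the choice either. Against these cells 8 genes were called higher and 1 lower, where 2.14% of all genes were called higher and 10.4% lower. The largest difference was that of bbox1, at 9.08, 8.66 and 8.26 in the libraries labelled TAA EC against 5.22, 5.18 and 5.49 in mCherry-negative cells (3.37, SE 0.32, adjusted p = 3.4e-07). It was followed by rdh12 (2.43), acads (2.10), uqcc3 (1.60), retsat (1.40), hsdl2 and dhrs4 (1.28 each) and hadh (1.06), and loxl1 was called lower (-2.71). Without mCherry-negative replicate 1 the difference of loxl1 was -1.68 and not called. Of the other genes of cluster B, 15.8% were called higher, a share close to that of the members. In the fatty acid oxidation list 10 of 14 other genes were called higher and 0 lower, and all 15 leukocyte markers were lower. The count was 5 without EC TAA replicate 3 and between 5 and 9 with each of the 6 libraries compared left out in turn. It was 26 in a fit of only these 6 libraries and 0 with centring on hepatocyte markers. That centring moved the median of all genes by -0.93. The shares of all genes called in that fit and under that centring are not given here. The main fit shares its spread with EGFP-negative replicate 3, which was not left out. How much of the rise to 26 comes from that library was not tested. The calls of bbox1, rdh12, acads, hsdl2 and dhrs4 held without each library in turn.

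**Figure D4:**
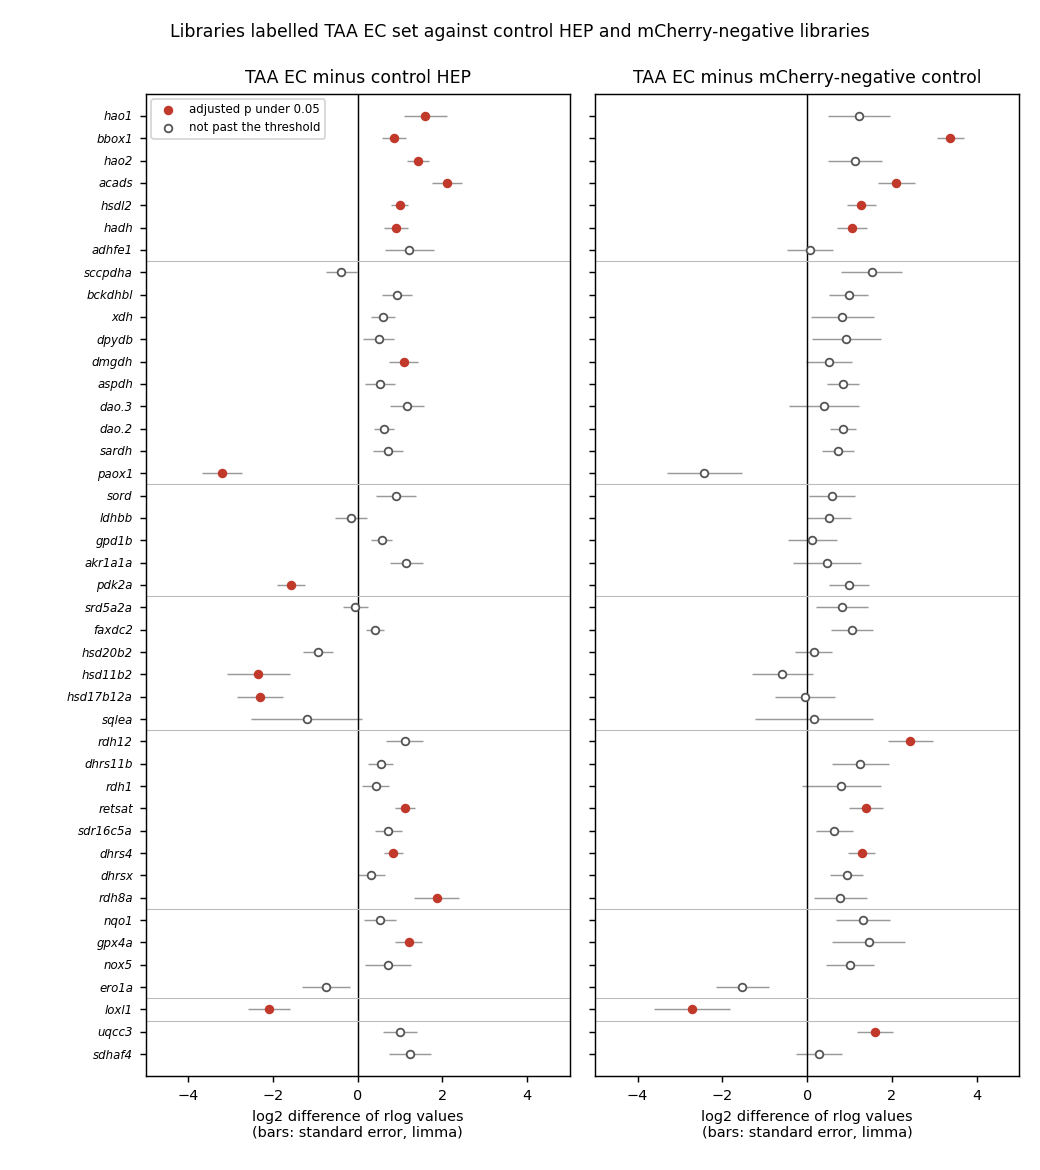
Difference of 43 of the 45 genes (log2 of rlog values with standard error from limma, x axis) between libraries labelled TAA EC and control HEPs (left) and mCherry-negative control cells (right), 3 libraries per group, with filled points for adjusted p under 0.05. Most genes lie within 2 units of 0, with bbox1 at 3.37 on the right and paox1 at -3.20 on the left, and with libraries centred on hepatocyte markers 1 gene on the left and 0 on the right are called higher.

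In HEPs the same question gave few called changes. TAA HEPs had 5 of the 45 genes called higher and 1 lower, where 2.13% of all genes were called higher and 5.27% lower, with a median of 0.52 against -0.02 over all genes. Of the 519 other genes of cluster B, 9.63% were called higher. The acyl-CoA dehydrogenase gene acads stood at 5.60, 5.58 and 5.31 in TAA HEPs against 3.31, 4.78 and 4.79 in control HEPs (1.20, SE 0.35, adjusted p = 0.043). For hao2 the values were 6.83, 6.81 and 6.83 against 5.62, 5.45 and 5.99 (1.14, SE 0.27, adjusted p = 0.012). The groups did not overlap for either gene, but without control HEP replicate 1 the difference of acads was 0.71 and not called. The oxidase gene nox5 stood at 3.24, 2.59 and 3.30 in TAA HEPs against 0.43 to 1.55 in the 3 control HEP libraries (1.89). For dhrs4 the values were 6.88, 6.39 and 6.53 in TAA HEPs against 5.55, 5.50 and 6.01 in control HEPs (0.91). For hsdl2 they were 8.50, 7.85 and 7.92 in TAA HEPs against 7.51, 6.95 and 7.29 in control HEPs (0.84). Each TAA HEP library was above each control for these genes. All 8 fuel oxidation genes had a difference above 0, of 0.34 to 1.20, and 4 of 14 other fatty acid oxidation genes were called higher and 0 lower. Leukocyte markers were lower in TAA HEPs for 11 of 15 genes, with a mean of 3.37 against 5.09, and their part in these differences was not tested.

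The 1 gene called lower in HEPs was pdk2a, whose product shuts pyruvate dehydrogenase. It stood at 8.35, 7.50 and 7.61 in TAA HEPs, against 10.24, 9.16 and 9.71 in control HEPs, a difference of -1.89 (SE 0.32, adjusted p = 0.0014). It was the only HEP call that held without each library in turn. The number of called genes was 2 without TAA HEP replicate 1, 3 without TAA HEP replicate 3 and 2 without control HEP replicate 2. Squalene epoxidase (sqlea) was not called, at -1.08, -0.79 and -1.10 in TAA HEPs against 2.70, -0.29 and 3.34 in control HEPs (-2.91, SE 1.31), although the groups did not overlap. That standard error too is shared with the HSC-labelled control at 7.72, but sqlea was not called in a fit of only the HEP libraries either. Of 20 other cholesterol genes 0 were called higher and 2 lower. In cluster B, hsd11b2 was not called either, with a difference of -1.97. It stood at 7.31, 6.67 and 7.25 in TAA HEPs against 9.66, 9.20 and 8.28 in control HEPs, without overlap. Its standard error is shared with control replicate 3 labelled HSC, which stood at 2.88. Other members outside cluster B were not called in HEPs, among them loxl1 (-1.43), paox1 (-1.27), hsd17b12a (-1.03), rdh8a (1.04), ero1a (0.52), rdh12 (-0.41), sdhaf4 (0.32) and dao.2 (-0.30).

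In the libraries labelled HSC, 10 of the 45 genes were called higher under TAA and 0 lower, where 4.26% of all genes were called higher and 3.94% lower. The median was 0.43 against -0.06 over all genes, and 15.8% of the other genes of cluster B were called higher. In these libraries 8 of 10 stellate markers were called higher under TAA and 9 of 15 leukocyte markers lower, and the part of either in the changes below was not tested. Among retinoid enzymes, retsat stood at 9.89, 9.91 and 9.97 in the TAA libraries, against 8.05, 8.66 and 8.38 in the controls (1.56, SE 0.24, adjusted p = 0.00046). The retinal reductase gene dhrs4 stood at 6.07, 5.95 and 6.35 against 4.40, 4.66 and 4.72 (1.53, SE 0.23, adjusted p = 0.00048). The groups did not overlap for either gene. The superoxide-producing nox5 stood at 3.65, 3.07 and 3.53 against 0.44, 2.76 and 0.47 (2.19, SE 0.55, adjusted p = 0.017), with control replicate 2 well above the other controls.

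The largest changes in these libraries were those of pdk2a and hsd11b2. For pdk2a the values were 8.89, 9.11 and 8.96 in the TAA libraries labelled HSC, against 5.77, 6.28 and 7.16 in the controls (2.58, SE 0.32, adjusted p = 6.9e-05). The related kinase gene pdk4, no member and named after its value was seen, was called higher by 1.38. The cortisol-inactivating hsd11b2 stood at 7.99, 8.14 and 8.02 against 7.19, 6.48 and 2.88 (2.53, SE 0.74, adjusted p = 0.041). Without control replicate 3 the difference was 1.22 with an adjusted p of 0.15, and the call was also lost without any 1 of the TAA replicates. The other calls were uqcc3 (1.42), hsdl2 and dhrsx (1.05 each), xdh (1.03) and bbox1 (0.99). The calls of pdk2a, retsat, dhrs4 and hsdl2 held without each library in turn. The number of called genes was 5 without TAA replicate 1, TAA replicate 2 or control replicate 3, 4 without TAA replicate 3, and 5 in a fit of only these 6 libraries.

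The difference of sqlea in HSC-labelled libraries rested on 1 control. It stood at 0.30, 0.22 and 0.27 in the TAA libraries, against -0.07, 0.65 and 7.72 in the controls. The 20 other cholesterol genes averaged 7.83 in control replicate 3 and 4.38 and 5.32 in the others. The difference of sqlea was -2.50 (SE 1.31) with that library, not called, and -0.03 without it. The folding gene ero1a stood at 4.08, 3.60 and 4.71 in the TAA libraries against 5.58, 4.37 and 6.66 (-1.41, SE 0.56, adjusted p = 0.13), while 5 of 12 other folding genes were called lower and 0 higher. Of the remaining members outside cluster B, paox1 differed by -1.49, rdh8a by 0.88, hsd17b12a by -0.80, dao.2 by -0.59, rdh12 by -0.48, sdhaf4 by 0.43 and loxl1 by -0.03, with 0 of them called. The decrease of paox1 was called in 4 of 13 other settings, median centring and quantile normalization among them.

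Only hsdl2, dhrs4 and nox5 were called higher under TAA in all 3 sorts of library, and 12 genes were called higher in HEPs or in HSC-labelled libraries. The matching shares over all genes were not computed, so these counts are a description only. Whether the changes differed between the sorts was tested as an interaction. The change in EC-labelled libraries exceeded that in HEPs for 37 genes and was below it for 3, where 16.0% and 24.9% of all genes were called. It exceeded the change in HSC-labelled libraries for 33 genes and was below it for 2, where 17.1% and 26.0% were called. Both comparisons use the libraries that drew the clusters and share the EC libraries. For nox5 the changes of 2.19 in EC-labelled libraries, 1.89 in HEPs and 2.19 in HSC-labelled libraries were not called different, with interaction differences of 0.30 for EC minus HEP and -0.0016 for EC minus HSC (SE 0.77 each). The HEP call of nox5 was lost without any 1 of the HEP libraries, with adjusted p up to 0.15.

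Between HSC-labelled libraries and HEPs, 2 of the 45 genes were called with a higher change and 0 with a lower one, where 2.15% and 0.709% of all genes were called. They were pdk2a and hsd11b2. The TAA change of pdk2a was 2.58 in HSC-labelled libraries and -1.89 in HEPs, a difference of 4.47 (SE 0.46, adjusted p = 1.5e-05). That of hsd11b2 was 2.53 in HSC-labelled libraries and -1.97 in HEPs, where it was not called, a difference of 4.50 (SE 1.05, adjusted p = 0.022). The difference of pdk2a was called in every setting tried, at 4.15 to 4.85. That of hsd11b2 lost its call without HSC TAA replicate 1 or 2, HEP TAA replicate 2, or HEP control replicate 1 or 2, with adjusted p up to 0.059, and was 3.19 without HSC control replicate 3.

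**Figure D5:**
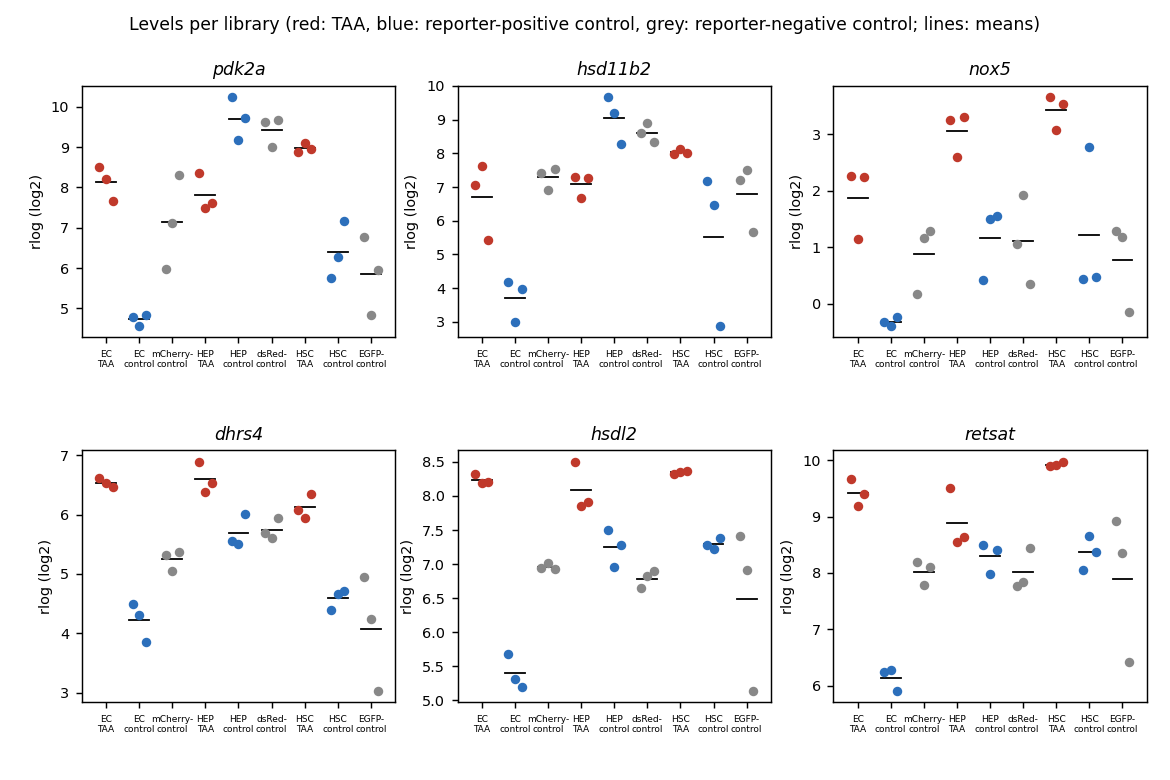
Level of pdk2a, hsd11b2, nox5, dhrs4, hsdl2 and retsat (rlog, log2, y axis) in each of the 27 libraries, with the 9 groups along the x axis, red points for TAA, blue for reporter-positive control and grey for reporter-negative control, and lines for group means. In HEPs pdk2a is lower in all 3 TAA libraries than in the 3 controls, and in HSC-labelled libraries it is higher in all 3.

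In control fish the sorted cells differed in the same genes. Control ECs had 35 genes called lower and 3 higher than control HEPs, where 17.1% of all genes were called lower and 25.9% higher. Against control libraries labelled HSC, control ECs had 36 genes called lower and 2 higher, where 18.4% of all genes were called lower and 27.4% higher. These groups were among those used for the clusters, so the counts describe the choice of genes. They also differ in reporter line and in sort at once. The matrix enzyme loxl1 was 5.31 higher in control ECs than in control HEPs (SE 0.52) and paox1 2.68 higher (SE 0.52). The third gene called higher, ero1a, was 1.68 higher than in control HEPs but 1.98 lower than in control HSC-labelled libraries. The largest deficits against HEPs were those of srd5a2a (-5.46), sccpdha (-5.43), hsd11b2 (-5.32) and pdk2a (-4.97).

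Control HEPs and control libraries labelled HSC differed in 4 of the 45 genes, 3 higher and 1 lower in HEPs, where 1.79% and 0.829% of all genes were called. The kinase gene pdk2a stood at 10.24, 9.16 and 9.71 in control HEPs, against 5.77, 6.28 and 7.16 in control HSC-labelled libraries (3.30, SE 0.36, adjusted p = 0.00077). Under TAA its order was turned round, at 7.50 to 8.35 in HEPs against 8.89 to 9.11 in HSC-labelled libraries. The steroid enzyme genes hsd11b2 (3.53, adjusted p = 0.044) and hsd20b2 (2.18, adjusted p = 0.022) were also higher in HEPs. The difference of hsd11b2 was 2.21 without HSC control replicate 3, and both genes lost their call without any 1 of the HEP controls. The HEP values of hsd20b2 were 6.60, 5.96 and 5.96, against 3.55, 4.10 and 4.33. The gene called lower was ero1a, at 1.28, 2.15 and 2.21 in control HEPs against 5.58, 4.37 and 6.66 (-3.66, SE 0.56, adjusted p = 0.0066). The count was 2 without any 1 of the HEP controls. These groups also come from different reporter lines. The reporter-negative control cells of these lines differed in the same direction for all 4 genes, without overlap. The share of all genes that did so was not computed, so this is a description only. The EGFP-negative group includes replicate 3, which stood apart in its markers. Means in dsRed-negative against EGFP-negative cells were 9.43 and 5.86 for pdk2a, and 8.61 and 6.79 for hsd11b2. They were 6.60 and 4.17 for hsd20b2, and 2.97 and 5.56 for ero1a. How much of the 4 differences comes from the line was not tested.

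Reporter-negative cells gave the last comparison. Whether they were used to draw the clusters is not stated in the paper. The control ECs were used, so the direction is not independent of how the genes were chosen. Control ECs had 33 genes called lower and 2 higher than mCherry-negative cells, where 14.3% of all genes were called lower and 15.0% higher. The median was -2.58 against 0.10 over all genes, and of the other genes of cluster B 85.5% were called lower. The largest deficit was that of srd5a2a, at 2.82, 1.94 and 1.36 in control ECs against 6.63, 6.58 and 6.66 in mCherry-negative cells (-4.58, SE 0.73). The genes called higher in control ECs were loxl1 (4.69, SE 1.02) and paox1 (3.45, SE 1.02). In mCherry-negative cells loxl1 stood at 5.24, 1.19 and 3.13 and the endothelial markers averaged 4.97, 2.26 and 2.79, so both were highest in replicate 1. With libraries centred on hepatocyte markers, 6 genes were called higher and 0 lower. That centring moved the median of all genes by 3.44, so smaller deficits turn positive by construction. The share of all genes called under it is not given here.

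For dsRed, 0 of the 45 genes were called in either direction between positive and negative control cells, where 0.00545% of all genes were called higher and 0.529% lower in limma. In the same comparison 0 of the 24 hepatocyte markers were called, with means of 12.05 in dsRed-positive and 11.93 in dsRed-negative cells. At an unadjusted p under 0.05 there was 1 of the 45 genes, and in a fit of only these 6 libraries 1 gene was called lower. The matching shares of all genes are not given here, so these 2 counts are a description only. For loxl1 the values were 2.79, 3.29 and 1.63 in dsRed-positive cells, against 6.02, 5.53 and 5.99 in dsRed-negative cells (-3.28, SE 1.02, adjusted p = 0.16). The groups did not overlap, and the endothelial marker mean was 2.26 in the positive and 4.99 in the negative cells. For EGFP, 0 of the 45 genes were called, where 0% of all genes were called in each direction. Of the 45, 5 genes had an unadjusted p under 0.05. The share of all genes at that unadjusted threshold is not given here either. The spread of the EGFP-negative group came from replicate 3, and without that library the EGFP count was still 0. The mCherry and dsRed comparisons, and TAA ECs against mCherry-negative cells, share a spread per gene with that library. It was not left out there, so their standard errors may be too large for genes in which it stands apart. The smallest p that an exact two-sided permutation test of 3 against 3 libraries can give is 0.1, so that test could not pass the threshold for any single gene.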

How the data were processed

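RNA from FACS-sorted liver cells was sequenced by the authors after low-input cDNA synthesis. The submitters' notes name FastQC 0.11.8, cutadapt 1.18, STAR 2.6, SAMtools 1.9, DESeq2 and the GRCz11 build. The deposited table holds log2 values (DESeq2 rlog) that the authors made for 18336 genes in 27 libraries, with 0 value columns of no sample. The rlog transform shrinks low counts, so differences of low genes are understated. Counts are not in this table, so the depth per library is unknown here and no count test was run. The settings of the transform are not given in the sources used here.

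The 45 genes, their roles and the pathway and marker lists were chosen with earlier results of these data known. Groups were compared in limma 3.58.1 (R 4.3.3) with a variance trend, p-values being adjusted by Benjamini-Hochberg over all genes with a threshold of 0.05. TAA changes, interactions and TAA ECs against control HEPs were fitted on the 18 reporter-positive libraries, control cell types on the 9 positive controls, positive against negative cells on the 18 controls, and TAA ECs against mCherry-negative cells on all 27. Tables and plots were made in Python 3.11.15 with pandas 2.3.3, numpy 2.4.6, scipy 1.17.1 and matplotlib 3.10.9, and the fit was tested on simulated data.

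Genes were chosen for full description, most with their values in each library, as the 2 largest EC changes per role, genes against the direction of their role, genes called in HEPs or HSCs (the 6 largest where more were called), genes outside cluster B and genes that are not oxidoreductases. From each pathway list at most 4 other genes were named, by size of the EC change, and any other was picked after its value was seen. Of the 45 genes, 2 were counted but are not reported here one by one. Other settings were a filter at a mean rlog of 3, an absolute difference of at least 1, no variance trend, median centring and quantile normalization. A replicate block and a fit restricted to the libraries being compared were also tried. Each of the libraries compared was left out in turn. Centring on hepatocyte markers was added after seeing the data. Same-numbered positive and negative control libraries deviated together for mCherry (r of 0.13 to 0.19 across genes) and dsRed (0.11 to 0.16), so their numbers were taken to pair them. The replicate block setting used library numbers in every comparison, in most within each line. For control cell types and for TAA ECs against control HEPs it used them across lines, where no pairing is known. The main fits held no replicate block, so the standard errors and p-values printed for the mCherry and dsRed comparisons do not use the pairing. No pair of replicates was identical.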

Additional observations from a re-analysis of the deposited data

Results flagged for a closer look

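The TAA change differed between EC-labelled libraries and HEPs for 40 of the 45 genes and between EC-labelled and HSC-labelled libraries for 35, by the interaction term in limma. These counts rest on the libraries that drew the clusters and on the libraries labelled TAA EC that lacked endothelial markers.

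Between HSC-labelled libraries and HEPs the TAA change differed for 2 genes, with limma's interaction term. That of hsd11b2 differed by 4.50 (SE 1.05, adjusted p = 0.022) and that of pdk2a by 4.47 (SE 0.46, adjusted p = 1.5e-05). For pdk2a, 3 of 3 TAA libraries were above the controls in the HSC-labelled group and 3 of 3 below them in HEPs. The levels of pdk2a and hsd11b2 also differed between the reporter-negative control cells of these lines, and the part of the line was not tested.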

How the results depend on the processing

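No count of called genes moved by over 1.5 times with median centring, quantile normalization, no variance trend or the replicate block. With the replicate block 43 genes were called in TAA ECs, 5 in TAA HEPs, 9 in TAA HSCs, 35 in control ECs against mCherry-negative cells and 15 in TAA ECs against control HEPs. No label says that equal numbers pair TAA with control libraries, or libraries of different lines. Same-numbered TAA and control libraries deviated together little or not at all (r of -0.043 to 0.066), although for EC the own number matched best in 3 of 3. Between EGFP-positive and EGFP-negative libraries r was 0.14 for replicate 1, -0.060 for replicate 2 and 0.0008 for replicate 3. A fit of only the libraries compared called 5 genes in TAA HSCs, 1 in dsRed-positive against dsRed-negative cells and 26 in TAA ECs against mCherry-negative cells. Centring on hepatocyte markers called 24 genes in TAA ECs, 22 in control ECs against control HEPs, 6 in control ECs against mCherry-negative cells, 8 in TAA ECs against control HEPs and 0 in TAA ECs against mCherry-negative cells. The shares of all genes called in these other settings are not given here. By construction the centring on hepatocyte markers, which shifts every gene by the marker difference, turns small TAA EC rises negative and small control EC deficits positive. Among the 28 genes whose settings were compared one by one it turned the TAA EC difference negative for acads (-1.22), bbox1 (-0.18), dao.2 (-0.56), dhrs11b (-0.0089), dhrs4 (-2.06), faxdc2 (-0.32), hao2 (-0.29), hsd11b2 (-1.39), hsd17b12a (-2.20), hsdl2 (-1.52), ldhbb (-0.50), nox5 (-2.17), pdk2a (-0.97), rdh8a (-2.69), retsat (-1.08), sdhaf4 (-3.49), sord (-0.44), sqlea (-2.45) and uqcc3 (-0.76). Leaving out each library in turn gave 42 to 43 called genes in TAA ECs, 2 to 6 in TAA HEPs, 4 to 8 in TAA HSCs, 39 to 41 for EC against HEP changes, 34 to 38 for EC against HSC changes, 1 to 3 for HSC against HEP changes, 37 to 38 for control ECs against HEPs, 36 to 40 for control ECs against HSCs, 2 to 5 for control HEPs against HSCs, 29 to 33 for mCherry-positive against negative cells, 0 for dsRed and for EGFP, 8 to 14 for TAA ECs against control HEPs and 5 to 9 for TAA ECs against mCherry-negative cells. The uncalled HEP difference of sdhaf4 lay between -0.029 (without TAA replicate 1) and 0.66 with each library left out, and that of loxl1 in HSCs between -0.36 and 0.26, being 0.13 and 0.10 without TAA replicates 2 and 3 and 0.26 and 0.0018 without control replicates 1 and 2. Some genes not called in the main fits gained a call in other settings. In EC-labelled libraries these were sdhaf4 (median centring, quantile normalization) and sqlea (a fit of only the libraries compared). In HEPs they were loxl1 without control replicate 3 and paox1 without control replicate 1. In HSC-labelled libraries they were paox1 in 4 of 13 settings and ero1a without control replicate 2. The cause of these moves was not tested. With 3 libraries a group, small differences in HEPs and HSCs could be missed, and the depth is unknown.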
